A study of Mus musculus with 2 samples.

Results

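The set described here is 8 of the 12393 mouse genes that a probe set of 1 gene represented on the array: the PIM kinase genes Pim1, Pim2 and Pim3, the C/EBP factor genes Cebpa, Cebpb, Cebpd and Cebpg, and Bcl6. They were chosen by name, as genes that STAT3 is known to act on, and not by their values, although earlier results of these arrays were known when the set was drawn up. All 8 were found on the array, through 16 of its 22690 probe sets, and each was represented by its brightest probe set. Transcripts were measured in epithelial cells that trypsin digestion and squeezing had freed from the uteri of pregnant mice, on day 4 and in the morning. The groups follow the genotype labels, control and Stat3 knockout. The titles of both samples, the knockout included, name Stat3 flox control mice. The sources used here do not give strain, age or Cre driver. Each group was read by 1 array, hybridised with pooled RNA (n = 3 per sample in the design text, not defined further). With 1 array per group there was no replicate error between animals and no test, so differences are given by size against a limit of 2-fold.

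The PIM proteins are serine/threonine kinases that have no regulatory domain and are active once made, so their amount is set largely by transcription, which cytokines drive through JAK kinases and STAT factors. They phosphorylate proteins of survival, cell cycle and translation control. The C/EBP proteins are basic leucine zipper factors that bind DNA as homodimers or heterodimers; C/EBPbeta and C/EBPdelta are induced by interleukin 6 family cytokines in the acute phase response, C/EBPalpha goes with arrest of division and differentiation, and C/EBPgamma lacks an activation domain of its own and acts through its partners. In the mouse uterus, C/EBPbeta is known for its part in steroid-driven epithelial proliferation and in decidualisation. BCL6 is a zinc finger repressor that recruits co-repressors and binds sites that resemble those of STAT factors.

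The promoter sequences of the set are shown first, because a gene called a STAT3 target is often taken to carry a STAT site near its start. RefSeq promoter windows (GRCm38.p6, from 250 bases before to 50 after a start) were found for 7 of the 8 members, in 9 windows; Cebpd had none in the table. The STAT-type motif TTCNNNGAA, which reads the same on both strands, was present in 2 of the 9 windows, both of Bcl6, and in 8.30% of 32851 mouse windows of that length. The first Bcl6 window held 1 match and the second, at a start inside the gene, held 3. The match farthest upstream of the second start also had the BCL6-type form TTCCTNGAA, which is contained in the STAT-type motif and was found on either strand in 1.59% of windows. In the stretches below, written 5′ to 3′ on the gene's strand, capitals mark the STAT-type matches.
Bcl6 first start, chr16:23988943-23988992, minus strand: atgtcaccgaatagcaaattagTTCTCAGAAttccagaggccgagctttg
Bcl6 second start, chr16:23981354-23981463, minus strand: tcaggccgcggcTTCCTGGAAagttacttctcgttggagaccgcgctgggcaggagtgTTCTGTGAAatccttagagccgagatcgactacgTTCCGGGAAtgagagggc

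The windows of Pim1, Pim2, Pim3, Cebpa, Cebpb and Cebpg did not hold these STAT-type letters, which says nothing about binding outside or within them. Other motifs were searched on both strands. The CRE-like motif TGACGCA lay in the window of Cebpb only among the members (2.12% of all windows), directly before its start, and the C/EBP core motif TTGCGC in that of Cebpa only (6.49%). The fuller C/EBP-type motif TTGCNNAA was found in the Pim2 window alone (10.8% of all windows). CCAAT boxes, CCAAT or its complement ATTGG, were present in the windows of Pim2, Pim3 and Cebpg (37.4% of all windows). The stretches below are those of the 2 PIM genes past the 2-fold limit and of Cebpa and Cebpb, whose matches no other member window shared; capitals mark the CRE-like motif in Cebpb, the complement of the CCAAT box in Pim3 and the C/EBP core motif in Cebpa, and the Pim1 stretch had no match.
Cebpb, chr2:167688855-167688914, plus strand: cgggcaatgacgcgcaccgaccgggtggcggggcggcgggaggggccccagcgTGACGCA
Pim1 first start, chr17:29490705-29490784, plus strand: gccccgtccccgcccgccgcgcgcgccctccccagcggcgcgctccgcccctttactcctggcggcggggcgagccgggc
Pim3, chr15:88862069-88862138, plus strand: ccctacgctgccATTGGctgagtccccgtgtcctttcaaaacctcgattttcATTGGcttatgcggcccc
Cebpa, chr7:35119093-35119132, plus strand: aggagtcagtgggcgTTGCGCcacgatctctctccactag

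**Figure D1:**
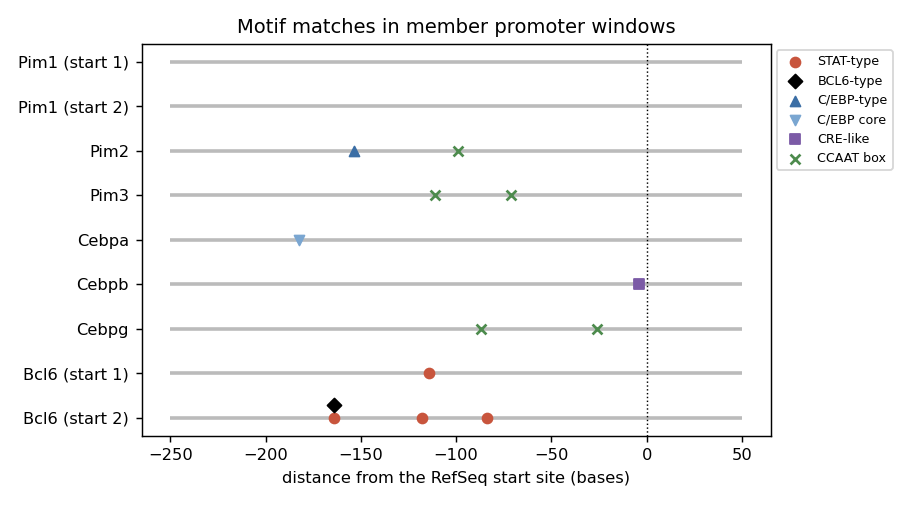
Positions of motif matches in the 9 RefSeq promoter windows of 7 members, as distance in bases from the start site (dotted line at 0); each grey line is a window and each symbol a match to the motif in the legend. STAT-type matches are seen in the 2 Bcl6 windows, 1 in the first and 3 in the second, and in no other window.

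The values are MAS5 signals, the background-corrected brightness of a probe set on a linear scale, and signals under 14.0 (the 40th percentile, control probe sets left out) were raised to that floor. Both arrays had the same trimmed mean signal of 150.1. Stat3 itself was lower on the knockout array, with signals of 582 and 186 in the control and the knockout (32.0% of control) in its brightest probe set and 430.0 and 160.0 in the next, and a dim one was under the floor on both arrays; whether they lie in the deleted part is not known here. The labelled tissue matched its markers: 9 of 10 epithelial markers had a probe set, all 9 were over the floor on both arrays, and their signals summed to 22205 and 22088. Of the 9, the keratin gene Krt7 was 3.46-fold lower in the knockout (1592 and 460.3), and Elf3, an epithelial transcription factor gene, had 842 and 432. Of the markers of other cells, all 7 neutrophil and all 7 lymphocyte markers with a probe set were under the floor on both arrays, while stroma markers were over it in 7 of 8, among them Dcn (1235 and 1753), and summed to 2566 and 3542. In such bulk RNA, fewer cells of a type and less RNA per cell cannot be told apart.

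Of the 8 members, 2 were lower in the knockout by 2-fold or more and 2 were higher by as much. Among all 8304 genes over the floor on at least 1 array, 9.92% were lower and 7.37% higher by 2-fold or more. At a limit of 3-fold, 1 member was lower, against 4.83% of all genes, and 0 were higher, against 1.72%. The members did not share a direction: 4 log2 ratios (knockout over control) were below 0 and 4 above. All measured genes, with a median of 0.05 and quartiles of -0.40 and 0.46, also split nearly evenly by sign. The members had a median of -0.22 and a range from -1.83 to 1.02. Cebpd and Pim1 were lower, Pim3 and Cebpa higher, and Cebpb, Cebpg, Pim2 and Bcl6 lay within 2-fold. The only error measured on such a ratio is the disagreement between probe sets of the same gene, which had an SD of 0.28 per probe set on the log2 scale over 2853 genes. It grew as signal fell, from 0.20 where the dimmer probe set was over 200 to 0.35 where it was under 50, and it covers neither animals nor arrays.

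**Figure D2:**
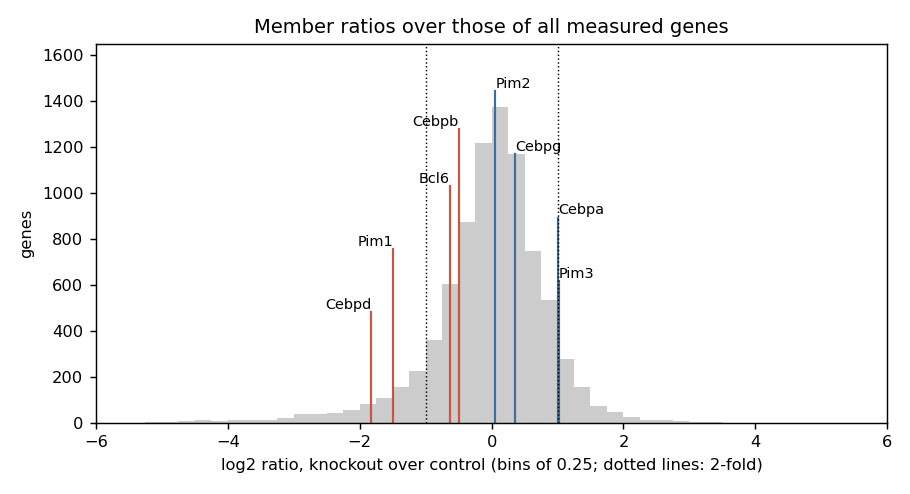
Number of genes by log2 ratio of knockout over control (grey bars, bins of 0.25), with a line at the ratio of each member's brightest probe set; line height only separates the names, and dotted lines mark 2-fold. Cebpd (-1.83) and Pim1 (-1.49) lie in the lower tail, Cebpa (1.01) and Pim3 (1.02) just past the upper limit, and the other 4 between the limits.

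The PIM kinase genes differed in opposite directions. Pim1, the founding member and the one most often reported to respond to cytokines through STAT factors (gene ID 18712, probe set 1435458_at), had a control signal of 118 and a knockout signal of 41.9. It was 2.82-fold lower (log2 ratio -1.49), which left 35.5% of the control signal, and 5.37% of all measured genes had a lower ratio. Among genes with a mean signal between 50 and 200, where Pim1 lies, 10.6% were lower by 2-fold or more. Its second probe set had signals of 26.6 and 12.4; the knockout value was under the floor, so it was at least 1.90-fold lower. Both Pim1 probe sets were thus lower in the knockout, but the second was dim. With the floor at the 60th percentile the log2 ratio was -0.88. This is a bound, because the knockout signal was under that floor and raised to it, so it does not place Pim1 within 2-fold.

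Pim3, the PIM kinase described in epithelial organs such as liver, pancreas and colon, showed the reverse. Its brightest probe set (gene ID 223775, 1437100_x_at) read 442 on the control array and 894 on the knockout array, or 2.02-fold higher (log2 ratio 1.02). This probe set is of a design that can read related sequences, but a second one without that limit had signals of 175 and 393, or 2.24-fold higher. The remaining one was under the floor on both arrays, at 2.87 and 5.48. Pim3 was therefore higher in both measured probe sets, close to the 2-fold limit in the first (0.99 on the log2 scale with the floor added to both signals). Among genes with a mean signal over 200, where Pim3 lies, 6.94% were higher by 2-fold or more.

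Pim2, the smallest PIM kinase, best known from lymphoid cells, was barely over the floor. Its single probe set had signals of 16.0 and 16.7, and its log2 ratio of 0.06 lies near the median of all genes. Signals this close to the floor could hide a difference. The Pim3 and Pim1 log2 ratios differed by 2.51. This gap is between genes on the same pair of arrays and was not tested.

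**Figure D3:**
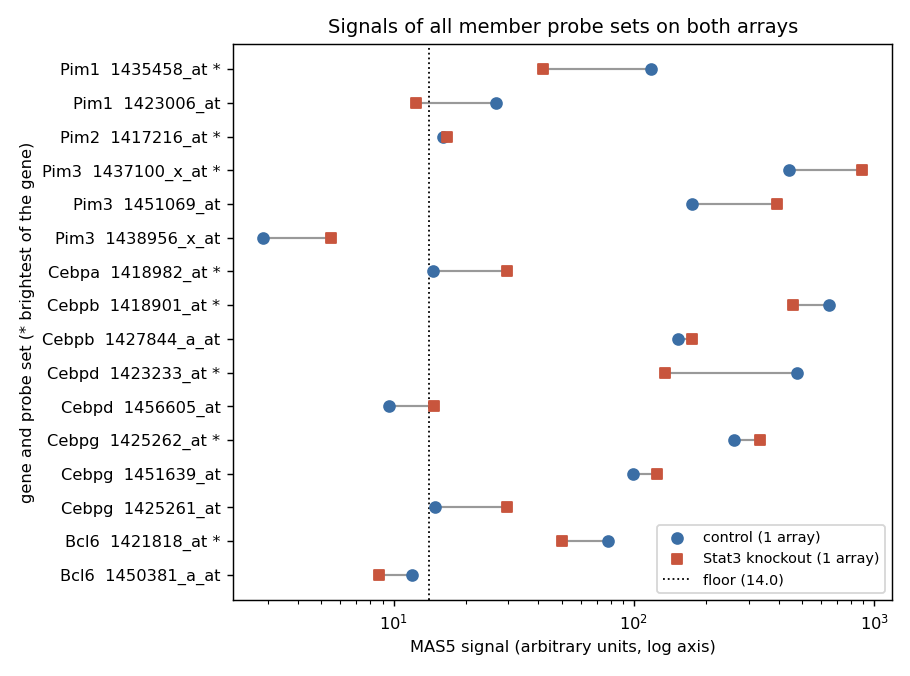
MAS5 signal (log axis) of the 16 probe sets of the 8 members in the control (circles) and the Stat3 knockout (squares), 1 array each, with the floor of 14.0 as a dotted line and the brightest probe set of a gene starred. Pim1 moves left in both probe sets and Pim3 right in all, while the probe sets of Cebpb and of Cebpd disagree in direction.

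Among the C/EBP factors, Cebpd, the acute phase member, had the lowest ratio of the set. It (gene ID 12609, probe set 1423233_at) read 479 on the control array and 135 on the knockout array, or 3.55-fold lower (log2 ratio -1.83), which left 28.2% of the control. Only 3.73% of all measured genes had a lower ratio, and 6.13% of genes with a mean signal over 200 were lower by 2-fold or more. A second Cebpd probe set went the other way but read almost nothing, with 9.61 in the control, under the floor, and 14.7 in the knockout, just over it. The Cebpd result therefore rests on 1 bright probe set, and the mean of both was -0.88.

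Cebpb, its close relative and partner, had a smaller difference that its probe sets did not share. The brightest probe set had signals of 647 and 459, or 1.41-fold lower (log2 ratio -0.50). The dimmer one, of a design that can read several transcripts, had 152 and 175, or 1.15-fold higher. The 2 ratios lie on either side of 0, so no direction is given for Cebpb. The Cebpd log2 ratio was lower than that of the brightest Cebpb probe set by 1.33, so the 2 factors that interleukin 6 type cytokines are known to induce had unequal ratios on these arrays.

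Cebpa, the factor linked to growth arrest (gene ID 12606, probe set 1418982_at), read 14.6 on the control array and 29.5 on the knockout array, or 2.02-fold higher (log2 ratio 1.01). The control value lies just over the floor and the gene had 1 probe set. Of genes with a mean signal up to 50, 9.24% were higher by 2-fold or more, and probe sets this dim disagreed most. The log2 ratio of Cebpa was 0.90 with loess and 0.60 with the floor added to both signals, both within 2-fold. Cebpa is also a gene of myeloid cells. Of 6 macrophage markers, all over the floor, 1 was past the limit (C1qa, higher, 33.2 and 67.4) and 1 was below 0 (Cd68, 81.1 and 44.4). With loess or the floor added to both signals, 0 were past the limit. The summed signal was 312 on the control array and 393 on the knockout array. None of these markers was at 0, and their part in the Cebpa value was not tested.

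Cebpg, which encodes the partner without an activation domain, lies near Cebpa on chromosome 7. Its brightest probe set had signals of 261 and 333, or 1.28-fold higher (log2 ratio 0.35), and the next had 99.4 and 125, or 1.26-fold higher. The dimmest, as dim as that of Cebpa, had 14.9 and 29.7, or 2.00-fold higher. All 3 were thus higher in the knockout, with the 2 brighter ones well within 2-fold. Within the family, the log2 ratios spread from -1.83 for Cebpd to 1.01 for Cebpa, a gap of 2.84.

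Bcl6, the repressor gene with the 4 STAT-type matches printed above (gene ID 12053, probe set 1421818_at), read 78.1 on the control array and 50.2 on the knockout array, or 1.56-fold lower (log2 ratio -0.64). It kept 64.3% of the control signal, and 17.0% of all measured genes had a lower ratio. The other probe set was under the floor on both arrays, at 12.0 and 8.71. The difference lies within the 2-fold limit.

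Of the other genes known as STAT3 targets, 27 were over the floor (35 on the list), and 17 of these were below 0. By the 2-fold limit 11 were lower and 3 higher, against 9.92% and 7.37% of all measured genes. The median log2 ratio was -0.30, against 0.05 for all measured genes. The 3 higher were Egr1 (462 and 1239), Irf1 (173 and 391) and Cish (62.3 and 127). With probe sets that can read several transcripts or related sequences left out, 7 were lower, against 9.74% of all genes. With the second brightest probe set, which fewer genes have, 2 were lower, against 7.66% of all genes with one. Fewer listed genes have a value under either setting, so these counts are not out of 27. Lcn2, an iron-siderophore binding protein that C/EBP factors also activate, was 28.0-fold lower (3051 and 109), the oncostatin M receptor gene Osmr 8.62-fold (182 and 21.1), and Bcl3, an NF-kappa-B cofactor gene, at least 12.1-fold lower (169.9 and 5.71, the latter under the floor). Birc5, a gene of mitosis, was 29.4-fold lower. Fos lay within 2-fold, with 1967 and 3147. So did the brightest probe set of Hif1a, with 3079 and 3757, but its other measured probe sets were past the limit, with 403 and 1233 and with 57.4 and 170.3. Of the 27, 13 stand in another list too.

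Of 24 measured genes that PIM kinases act on or through, 4 were lower and 2 higher by 2-fold or more, against 9.92% and 7.37% of all measured genes. Their median was 0.07. With probe sets that can read several transcripts or related sequences left out, 1 was lower, against 9.74% of all genes. With the floor at the 60th percentile, where some ratios are bounds, 1 was lower, against 7.27%. Fewer genes have a value under either setting. Skp2, which encodes the ubiquitin ligase subunit that marks p27 for destruction, was 6.58-fold lower (105 and 16.0), and Myc, whose protein PIM kinases stabilise, 6.55-fold lower (136 and 20.8). Cdc25c, a phosphatase gene of mitotic entry, was at least 2.61-fold lower. Foxo3, a transcription factor that PIM1 inactivates, was 2.63-fold higher (129 and 340), with a second probe set at 65.5 and 152. Eif4b, a translation factor gene, had 758 and 842. Skp2, Myc and Cdc25c are also tied to division, and 16 of 17 genes of the proliferation list were lower by 2-fold or more, Mki67 among them (742 and 19.1); the part of proliferation in the Pim1 value was not tested.

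Of 16 measured C/EBP partners and regulators, 1 was lower and 2 were higher by 2-fold or more, against 9.92% and 7.37% of all measured genes. The median was 0.12. Nfil3, a bZIP repressor gene, was 2.67-fold lower (143 and 53.6), Tef, a PAR bZIP factor gene of the circadian output, 2.57-fold higher (71.1 and 182), and Id2, an inhibitor of helix-loop-helix factors, 2.09-fold higher (752 and 1571). Other probe sets of Id2 had 571 and 1174, and 22.0 and 48.2. A second Tef probe set was under the floor in the control, with 4.02 and 15.4. Celf1, which encodes an RNA-binding protein that acts on Cebpb translation, and Cop1, a ubiquitin ligase gene of C/EBPalpha turnover, had 1497 and 1577, and 562 and 520.

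Known C/EBP target genes were under the floor or mixed. Of 26 with a probe set, 13 were under the floor on both arrays, among them Hp, Saa3 and Orm1, acute phase protein genes. Of the 13 measured, 2 were lower and 3 higher by 2-fold or more, against 9.92% and 7.37% of all measured genes. The median was -0.05. Beside Lcn2, Gadd45a, a stress gene that C/EBPalpha induces, was 3.42-fold lower (414 and 121). The cytokine genes Il6 (17.95 and 80.6) and Csf3 (69.3 and 220.2) were 4.49-fold and 3.18-fold higher. Cd14, a lipopolysaccharide co-receptor gene, had 1262 and 2101.

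Genes of BCL6 co-repressors and relatives differed little. None of 13 measured was past 2-fold in either direction, where 9.92% of all measured genes were lower and 7.37% higher. Hdac5 (52.0 and 101) was past it with median centring. The median was 0.07, and Hdac1 had 847 and 713, and Ctbp1 738 and 733. Genes that BCL6 is known to repress were split, with 5 of 18 lower and 5 higher by 2-fold or more, against the same shares. Their median was 0.37. Irf7, an interferon response factor gene, was 3.75-fold higher (94.9 and 356). Ccnd1, which encodes cyclin D1, was 4.60-fold lower (530 and 115), with the same direction in its other 2 probe sets, and Chek1, a checkpoint kinase gene, 3.89-fold lower (71.9 and 18.5). Socs2, a cytokine feedback gene, had 330 and 362.

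**Figure D4:**
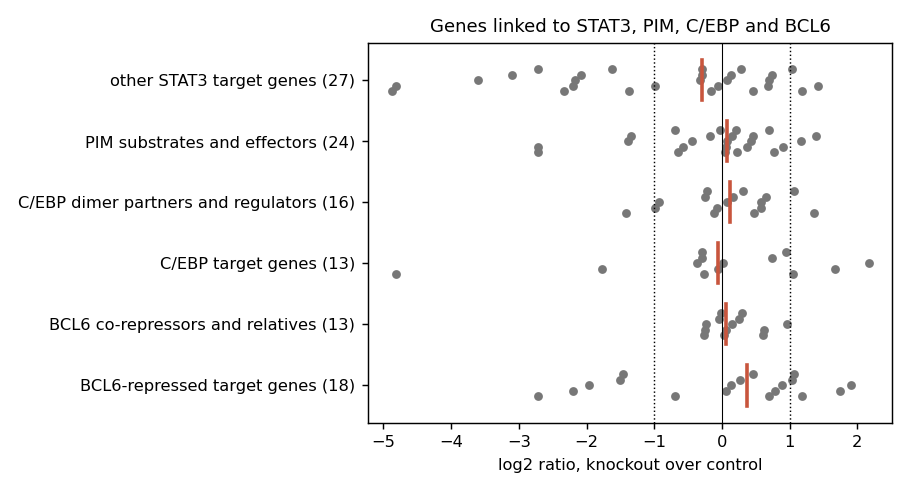
Log2 ratio of knockout over control for each measured gene (points) of 6 lists linked to STAT3, PIM kinases, C/EBP factors and BCL6, with the number measured in brackets; red bars are list medians, the solid line is 0 and dotted lines mark 2-fold. The list of other STAT3 targets has the lowest median (-0.30) and the longest lower tail. All 13 genes of BCL6 co-repressors and relatives lie between the limits.

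Several of the members are also immediate early or steroid-responsive genes, so both groups were set beside them. Of 24 measured immediate early genes, which answer stimuli and tissue dissociation within minutes, 8 were higher and 3 lower by 2-fold or more. Among all measured genes 7.37% were higher and 9.92% lower. The median of the list was 0.58. The phosphatase gene Dusp1 was 3.26-fold higher (375 and 1225) and Egr1 2.68-fold higher (462 and 1239), while Ier5 was 3.62-fold lower (97.2 and 26.9). Of 20 glucocorticoid and progesterone responsive genes, 5 were higher and 2 lower by 2-fold or more, and the median was 0.48; the clock gene Per1 (48.2 and 176) and the kinase gene Sgk1 (922 and 3140) were 3.65-fold and 3.40-fold higher. Of the members past 2-fold, Pim3 and Cebpa had the direction of the medians of both lists, and Pim1 and Cebpd the opposite one. By sign the 8 members split into 4 above 0 and 4 below, much as all measured genes do. The part of dissociation or hormone response in these values was not tested.

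The direction of most members did not depend on how the arrays were scaled or floored. Pim1 was lower and Pim3, Cebpa and Cebpg were higher under every alternative that gave them a value. A lower floor or none could not change a member ratio, because each brightest probe set was over the floor on both arrays. Bcl6 was lower under all that gave it a value. Cebpd was lower under all but the use of its dim second probe set, Cebpb likewise changed side with its second probe set, and Pim2 came just below 0 with loess (-0.05).

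**Figure D5:**
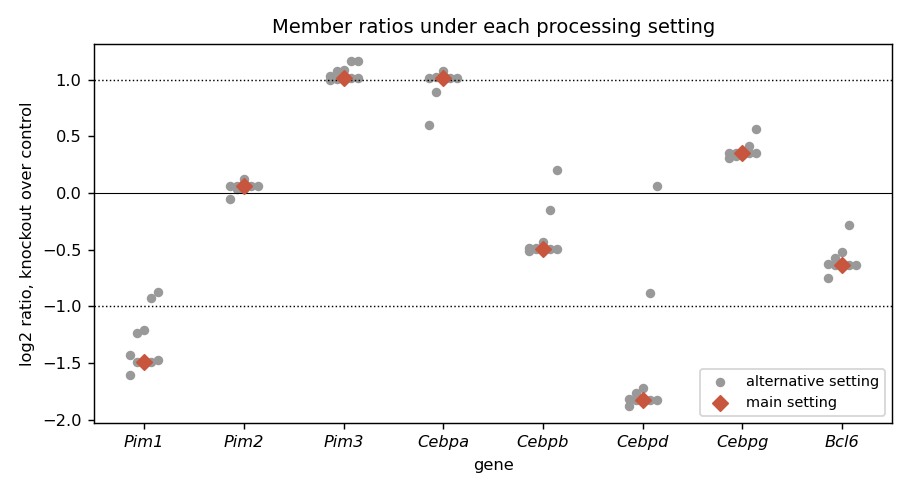
Log2 ratio of knockout over control of each member in the main setting (diamonds) and under each alternative setting that gave a value (grey points), with dotted lines at 2-fold. Pim1 ranges from -1.60 to -0.88, the latter a bound because its knockout signal is under the raised floor. Pim3 ranges from 0.99 to 1.16, and the single Cebpd point above 0 (0.07) comes from its dim second probe set.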

How the data were processed

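Total RNA (100 ng per array) was hybridised to the Mouse Genome 430A 2.0 array, 1 array per group, per the labels' protocols. The authors deposited 1 linear intensity per probe set and array, made with MAS5 in Affymetrix Expression Console 1.1 per the submitters' processing notes. Titles of both samples are identical and name Stat3 flox control mice, so genotype labels gave the groups. The extraction text in the labels names human stromal cells, and the collection text 2 days of pregnancy; organism, cell type and day come from the sample characteristics. Detection calls, probe-level files and hybridisation batches were not used here.

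Of 22626 probe sets that are not controls, 20380 had 1 gene in the platform annotation, 691 several and 1555 none; symbols were updated through RefSeq (GRCm38.p6, 20351 matched). A gene was represented by its brightest probe set (mean log2 signal over both arrays). Signals under the floor (14.0) were raised to it; a ratio with 1 such signal is a bound ("at least"). Genes under it on both arrays had no ratio. No pseudocount was added. MAS5 scaling fixes the mean of each array, so a shift of all genes together cannot be seen. Named genes were all members, Stat3, and from each of 17 lists at most 4 genes past 2-fold, taken by size of ratio, and at most 2 within it, taken by signal. Some are left out where the text does not turn on them. Listed genes named outside this rule are Elf3, Hdac5, Hp, Saa3, Orm1, Cd68, Irf1 and Cish. The members and lists were chosen with earlier results of these data known. The ratio code was tested on simulated data. Python 3.11.15, pandas 2.3.3 and statsmodels 0.14.6 were used. The number of arrays limits the precision.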

Additional observations from a re-analysis of the deposited data

How the results depend on the processing

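Of 109 recomputed member values, 90 moved by less than the probe set SD or, for counts, by no more than 1.5 times. Many of these could not move. A lower floor or none left all member ratios unchanged, because each brightest probe set was over the floor on both arrays. Leaving out probe sets that can read several transcripts or related sequences could change only Pim3. The mean of all probe sets could not change members with 1 measured probe set. With the floor at the 60th percentile, the log2 ratio of Pim1 was -0.88 and that of Bcl6 -0.28. Both are bounds, as the knockout signals were under that floor and raised to it. At that floor 1 member was at least 2-fold lower, not counting Pim1, whose bound does not reach the limit, and 1 was higher. Of all genes with a ratio at that floor, 7.27% were lower and 5.61% higher. Pim2 and Cebpa had no value, being under that floor. With the floor added to both signals, Cebpa was at 0.60 and 0 members were at least 2-fold higher, against 5.17% of all genes. With loess, 1 member was at least 2-fold higher, against 6.17% of all genes. With the mean of all probe sets, Pim1 was at -1.21, Cebpb at -0.15 and Cebpd at -0.88. Under that setting 1 member was at least 2-fold lower, against 9.46% of all genes. The second brightest probe set is lacking for Pim2 and Cebpa and under the floor for Bcl6. With it, Pim1 was at -0.92 (a bound from a knockout signal under the floor) and Cebpb at 0.20. Cebpd reversed to 0.065 (a bound from a control signal under the floor). The median of the members with such a probe set was 0.20, and 0 of them were at least 2-fold lower and 1 higher. Of all genes with a measured second probe set, 7.66% were lower and 7.97% higher. At a limit of 3-fold, 1 member was lower and 0 higher, against 4.83% and 1.72% of all genes. At a limit of 1.5-fold, 3 members were lower and 2 higher, against 18.6% and 19.4% of all genes. Of 228 list counts, 39 moved by more than 1.5 times. Median centring moved the median log2 ratio of all genes from 0.05 to 0.11, and loess to -0.01. Without a floor, 1774 genes were at least 2-fold lower and 1927 higher, against 824 and 612. No paired analysis was possible because each group has 1 array. Signal near the floor limits Pim2, Cebpa and the second probe sets of Pim1, Cebpd and Bcl6.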
